A study of Homo sapiens with 16 samples.

Results

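Solute carrier (SLC) genes encode membrane proteins that move amino acids, sugars, nucleotides, ions, vitamins and drugs across the plasma membrane and the membranes of organelles. Most work as exchangers or cotransporters that draw on existing gradients, and they are grouped into families by sequence, so that the first number of a symbol names the family. The SLCO genes encode organic anion transporters. In the HEK293T pre-mRNA map of pseudouridine, every site of a protein-coding gene whose symbol starts with SLC or SLCO followed by a digit was taken. This gave 164 sites in 87 genes of 32 families, of 13398 sites in all and of 10559 sites in protein-coding genes. The remaining 10395 sites of 5138 protein-coding genes are called other coding sites here.

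Pseudouridine is an isomer of uridine made by pseudouridine synthases such as PUS1, PUS7, TRUB1 and RPUSD4. PRAISE-seq reads it as a deletion: sulfite and bisulfite form an adduct on pseudouridine that reverse transcriptase skips, so the share of reads with a deletion at a uridine, the deletion level, stands for the modified share. The series holds 16 libraries in 6 groups, made from rRNA-depleted RNA. HEK293T, an embryonic kidney line, gave 3 treated (BS) libraries of cells without PUS1, PUS7 and RPUSD4 (PUS TKO), which served as the negative control, 3 TKO libraries whose titles carry no BS, 2 treated control libraries and 2 nontreated control libraries. HuCCT1, a bile duct cancer line, gave 3 treated and 3 input libraries. The site table has no column per library. Each site has 1 level and 1 coverage, so no knockout or untreated value stood beside it and no spread between replicates could be computed. Which libraries went into the level was not stated in the labels or the table, so a level is the deposited deletion share and may not equal the modified share in any group. Intervals are exact (Clopper-Pearson, 95%) for shares and for single levels, and cover counting error only. Reads made by PCR are not independent molecules. Shares of sites take each site as independent, while 41 SLC genes held at least 2 sites and 10 pairs of sites shared a run of uridines. The intervals of these shares may therefore be too narrow.

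The 12 SLC sites of highest level carried unlike sequences, and 11 of them are shown to let their flanks be compared. The letters are the deposited 11-base contexts, 5′ to 3′ on the listed strand in DNA letters, and the capital T is the site. The site left out lies in SLCO5A1 on chromosome 8.
SLC35C2: tttgaTtctca
SLC25A11: gccggTgagtt
SLC25A13: acttcTgtttc
SLC7A1: tgttcTcttcg
SLC29A4: tccctTcccct
SLC6A11: tttctTattca
SLC25A26: ttgttTgtttg
SLC39A11: tttgcTtcaca
SLC39A10: tttggTgaata
SLC25A51: tttaaTtttta
SLC49A4: tttttTacgtt

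None of these 11 contexts had a synthase motif described further on with the listed base as the modified one. With any uridine of the run allowed, SLC25A51 and SLC49A4 lay in a uridine tract. In the context of SLC29A4 all flanking bases were pyrimidines, and in that of SLC49A4 the site closed a run of T.

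The highest level was 46.7% (7 of 15 reads, interval 21.3 to 73.4%), in an intron of SLC35C2, a Golgi protein of the nucleotide sugar transporter families that RefSeq now lists as SLC35H1, at chromosome 20 position 46362489 of hg38. An intronic site of SLC25A13, the mitochondrial aspartate/glutamate carrier citrin, and a promoter-annotated site of SLC25A11, the mitochondrial carrier of 2-oxoglutarate and malate, each had 44.4% (8 of 18 reads). These lie at chromosome 7 position 96234508 and chromosome 17 position 4938767. At these depths the 3 levels could not be ordered.

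SLC7A1, the cationic amino acid transporter CAT1, had 43.3% (13 of 30 reads) in an intron at chromosome 13 position 29586847. SLC29A4, a monoamine transporter of the plasma membrane, had 42.9% (21 of 49 reads) at chromosome 7 position 5323367, annotated as intronic. SLC6A11, a GABA transporter, had 37.5% (6 of 16 reads) in an intron at chromosome 3 position 10920255. SLC25A26, the mitochondrial S-adenosylmethionine carrier, also had 37.5% (6 of 16 reads), in its 3'UTR at chromosome 3 position 66378199. SLC39A11, a zinc transporter of the ZIP family, had 35.3% (6 of 17 reads) in an intron at chromosome 17 position 72890412. SLC39A10, of the same family, had 33.3% (8 of 24 reads) at a promoter-annotated position. SLC25A51, the mitochondrial NAD carrier, had 33.3% (5 of 15 reads) at chromosome 9 position 37892113. SLC49A4, a lysosomal membrane protein, had 31.4% (11 of 35 reads) in an intron at chromosome 3 position 122843020.

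**Figure D1:**
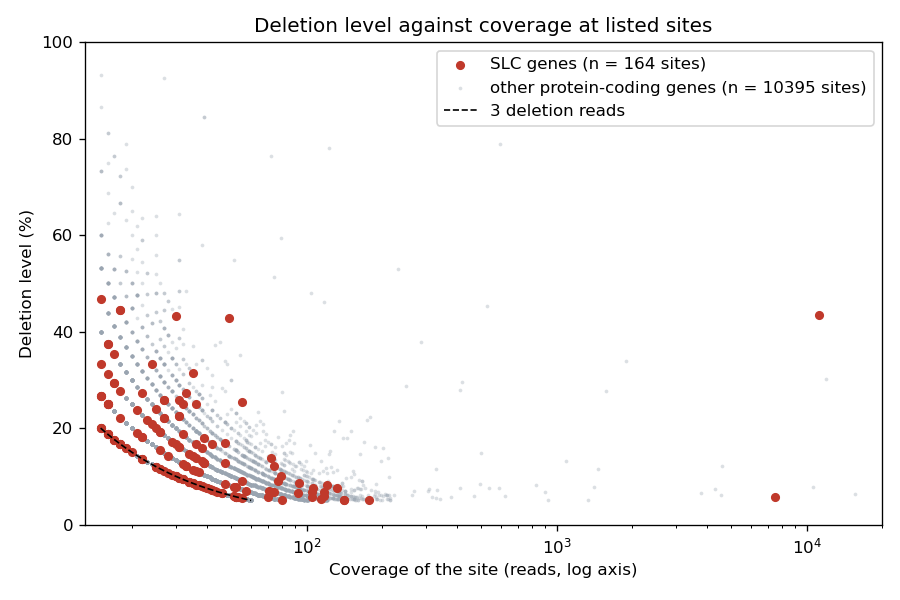
Deletion level (percent, vertical axis) against coverage (reads, log horizontal axis) of the 164 SLC sites, with other coding sites behind them. The SLC sites lie in the same wedge as the others, with high levels at low coverage, apart from the 2 deep sites of SLCO5A1 at 11236 and 7480 reads.

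Over all 164 sites the median level was 13.4% (order-statistic interval of the median 11.5 to 16.1%, quartiles 8.1 and 20%), against 12% (11.8 to 12.1%, quartiles 7.7 and 18.2%) over other coding sites. The SLC levels ran from 5 to 46.7%, while the highest other coding level was 93.3%. Sites at 20% or more made up 44 of 164 SLC sites (26.8%, interval 20.2 to 34.3%) and 21.3% of other coding sites. The interval of the SLC share holds that of other coding sites.

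Coverage was low throughout, with a median of 32 reads per SLC site and 34 per other coding site. The median SLC site had 4 deletion reads, as did the median other coding site. Exactly 3 deletion reads, the lowest number listed, were behind 64 SLC sites (39%, against 37.4% of other coding sites). Level fell with depth: SLC sites with 15 to 29 reads had a median of 19.6% (66 sites), those with 30 to 59 reads 9.7% (74 sites) and those with at least 60 reads 6.8% (24 sites). The medians of other coding sites in the same bands were 18.8%, 9.3% and 6.6%. Since only sites of at least 5%, 15 reads and 3 deletion reads are listed, a shallow site can appear only with a high level.

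To ask which SLC sites stood clear of a fixed error rate, the deletion reads of each site were tested against a background of 1% (one-sided exact binomial test, Benjamini-Hochberg adjusted over the 3.86e+06 tests that the deposited FDR values imply, threshold 0.05). The test passed 74 SLC sites in 45 genes (45.1%, interval 37.4 to 53.1%), against 3738 other coding sites (35.96%, 35.04 to 36.9%). Over all protein-coding sites 36.1% passed, and over all listed sites 37.5%. Of the 74, 49 were intronic, 12 in 3'UTRs, 9 in exons and 4 in promoters. None of the 64 sites with 3 deletion reads passed, and with this adjustment none could. Even 3 of 15 reads, at the lowest coverage listed, had an adjusted p of 0.239 (binomial test). At a background of 2%, 35 SLC sites passed, against 15.9% of other coding sites. At 0.1%, or adjusted over the listed sites alone, all 164 passed, as did 100% of other coding sites. All 164 have a p-value of exactly 0 in the authors' deposited table, as do 10325 of the 10395 other coding sites.

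Ordered by what their families move, amino acid and peptide transporters held the most sites, 28 in 16 genes, with a median level of 16.95% and 17 sites past the 1% background. SLC7A1 was their highest. SLC1A5, the glutamine transporter ASCT2, had intronic sites of 27.8% (5 of 18 reads) and 9.1% (7 of 77 reads), and both passed. SLC3A2, the heavy chain that brings several SLC7 transporters to the cell surface, had 25% in an intron (4 of 16 reads). SLC38A2, the sodium-coupled neutral amino acid transporter SNAT2, had a 3'UTR site of 8.3% (10 of 121 reads, interval 4.03 to 14.7%) and another of 16.1% (5 of 31 reads). SLC7A6, a subunit that exchanges basic for neutral amino acids, had a 3'UTR site of 13.9% (10 of 72 reads, interval 6.87 to 24.1%). SLC38A9, which senses arginine at the lysosome for mTORC1, had 12.2% in an intron (9 of 74 reads). All of these passed, while SLC7A11, the cystine/glutamate exchanger, did not with 5.8% in its 3'UTR (3 of 52 reads).

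The class of nucleotide sugar and sugar phosphate transporters, families that include carriers feeding glycosylation in the Golgi and endoplasmic reticulum, held 26 sites in 11 genes with a median of 11.45%, and 14 passed. That count takes in the 5 sites of SLC33A1, which carries acetyl-CoA and no sugar. Below SLC35C2, SLC35D1, which carries UDP-sugars into the endoplasmic reticulum, had 25% (8 of 32 reads) and 7.9% (3 of 38 reads) in introns. The mitochondrial carriers of the SLC25 family held 24 sites in 16 genes with a median of 16.4%, and 11 passed. SLC25A36, a carrier of pyrimidine nucleotides, had 18.2% at each of 2 intronic sites (4 of 22 reads each), 8.6% at another (8 of 93 reads) and 5.7% in its 3'UTR (6 of 105 reads). The deepest SLC site outside SLCO5A1 was in an exon of SLC25A3, the mitochondrial phosphate carrier, with 5.1% (9 of 178 reads), and it did not pass.

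Families of inorganic ion and pH transporters held 20 sites in 11 genes (median 12.45%, 5 passed), with SLC9B2 the highest at 26.7%. SLC12A2, the sodium-potassium-chloride cotransporter NKCC1, had 12.8% in an exon (5 of 39 reads). That count takes in SLC4A1AP, an adaptor protein rather than a carrier, with 5.8% in its promoter. Families of metal ion transporters held 17 sites in 11 genes (median 10%, 4 passed), and their highest was the SLC39A11 site. The copper importer SLC31A1 had 8.5% in its 3'UTR (4 of 47 reads) and did not pass.

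Sugar transporters held 7 sites in 3 genes (median 17%, 4 passed). SLC2A1, the glucose transporter GLUT1, had 27.3% in an intron (6 of 22 reads) and 17% in its 3'UTR (8 of 47 reads). SLC2A4, the insulin-responsive GLUT4, had an exonic site of 13.6% and neighbouring 3'UTR sites of 9.7%, each from 3 deletion reads.

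Families of organic ion, bile acid and drug carriers held 12 sites in 4 genes (median 13.55%, 8 passed), among them SLCO5A1 and SLC10A7. SLC10A7 alone gave 6 of these sites and 5 of those that passed. Families of vitamin and nucleoside carriers held 6 sites (median 11.3%, 2 passed), including those of SLC29A4. There, SLC19A1, the reduced folate carrier, had 11.5% and 11.1% at neighbouring intronic positions, and SLC29A1, the equilibrative nucleoside transporter, 7.9% and 5% in exons. Families of neurotransmitter and vesicular carriers held 7 sites (median 11.5%, 4 passed), with SLC6A11 the highest. SLC6A15, a family member that carries neutral amino acids, had 7.6% in an intron (10 of 132 reads) and 20% in its promoter (5 of 25 reads). Lipid and choline transporters held 10 sites (median 12.4%, 3 passed) and the carboxylate families, which include SLC16A10, 7 sites (median 18.8%, 2 passed).

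**Figure D2:**
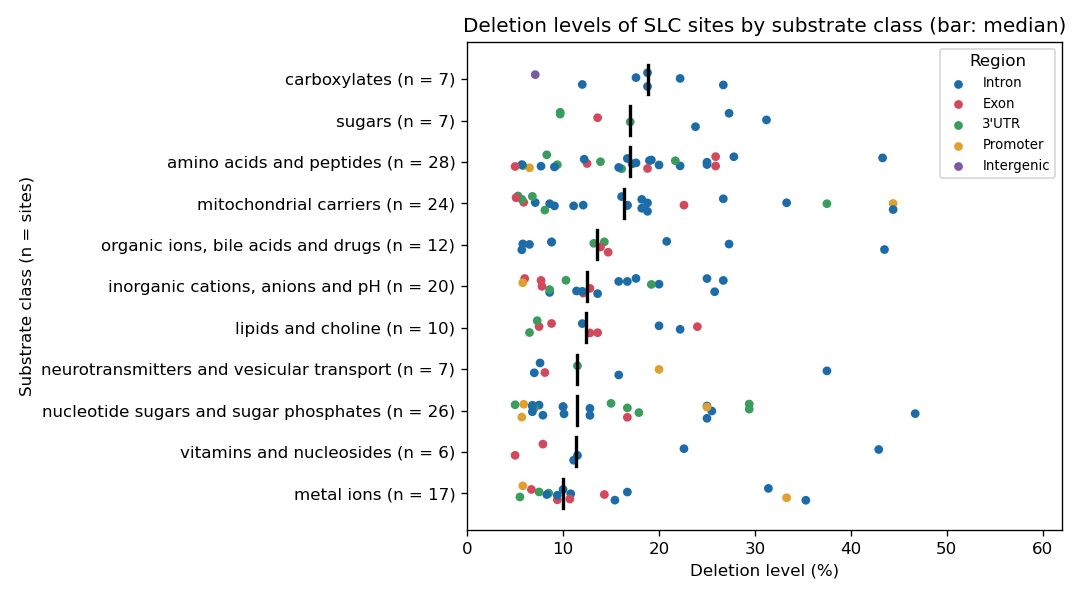
Deletion level (percent, horizontal axis) of each SLC site, with 1 row per substrate class and colours for the annotated region. Levels spread widely within the larger classes, from 5 to 43.3% among amino acid transporters and from 5.1 to 44.4% among mitochondrial carriers, and the classes overlap.

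By annotation, 90 SLC sites were intronic (54.9%, interval 46.9 to 62.6%, against 56% of other coding sites). A further 32 lay in 3'UTRs (19.5%, 13.7 to 26.4%, against 15.0%) and 30 in exons (18.3%, 12.7 to 25.1%, against 17.4%). Promoters held 9 (5.49%, against 6.22%) and 3 were intergenic (1.83%, against 1.91%). No SLC site was annotated to a 5'UTR or a transcription termination site, where the exact interval of 0 of 164 reaches 2.22%. Other coding sites had 1.31% and 2.17% there, both inside that interval. The intervals of the intronic, 3'UTR and exonic shares each held the share of other coding sites.

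Intronic SLC sites had a median level of 16.7% (14.3% in other coding genes), exonic sites 11.4% (9.1%) and 3'UTR sites 9.7% (9.5%). The 9 promoter sites had a median of 6.5%, against 10.8% for other coding promoters. Median coverage also differed, with 30 reads (29) in introns, 36.5 (46) in exons, 37.5 (42) in 3'UTRs and 51 (38) in promoters. At coverage of at least 60, medians were 7.6% (6.6%) in introns and 5.55% (6.6%) in exons, from 11 and 6 SLC sites. They were 5.7% (6.2%) in 3'UTRs and 6.1% (6.7%) in promoters, from 5 and 2 SLC sites. A promoter annotation did not always place a site near the start of the RefSeq gene. The promoter-annotated sites of SLC38A1, SLC39A10, SLC25A11, SLC35G2 and SLC35F5 lay 34.1 to 65.0% of the way along the span. Those of SLC4A1AP and SLC39A11 lay at 0.795% and 5.33%, and for SLC6A15 and SLC35F6 the gene strand was not known. The highest exonic level was at neighbouring positions of SLC66A1, a lysosomal exporter of basic amino acids, both with 25.9% (7 of 27 reads) at chromosome 1 positions 19317753 and 19317754. The highest intergenic site was assigned to SLC25A6, an adenine nucleotide translocator, with 16.7% (3 of 18 reads).

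The SLC39A10 site lies at chromosome 2 position 195657209. It was the one promoter-annotated site among the 12 highest that lay upstream of a RefSeq promoter start, by 17 nt. That start is inside the RefSeq span of the gene, and the site lies 35.4% of the way along the span. Its surroundings are shown to place it, from the RefSeq promoter table of GRCh38.p14, chr2:195657195-195657224 on the plus strand, with the deposited context in capitals.
SLC39A10 promoter: gcagtctgcTTTGGTGAATAcacgatttgg

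**Figure D3:**
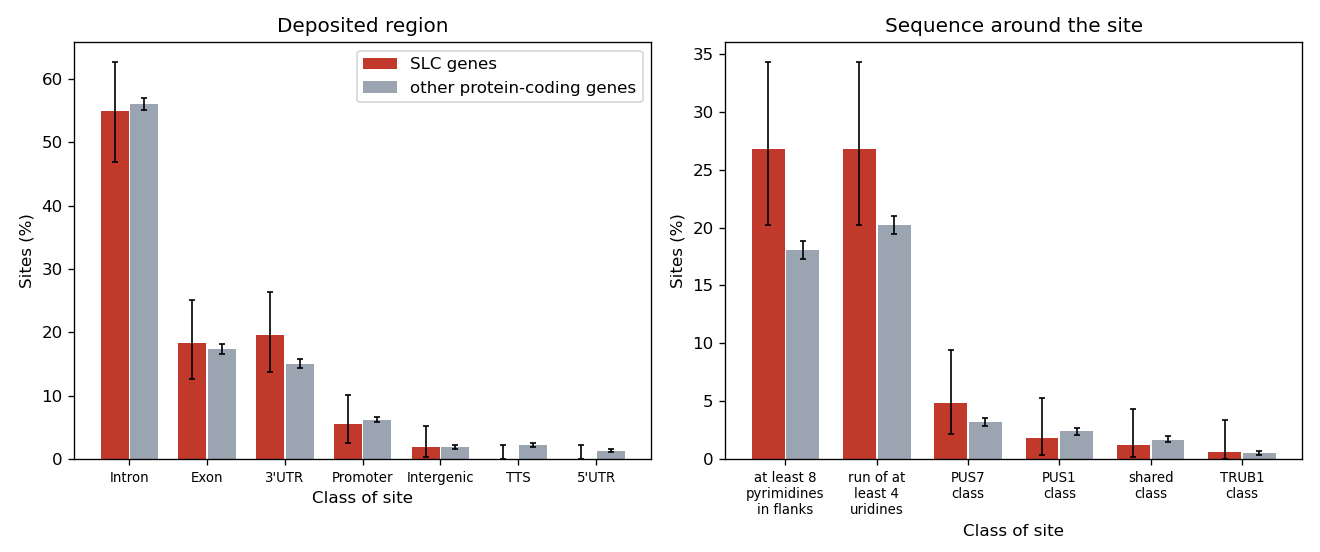
Percent of sites by annotated region and by sequence feature, for SLC sites and, beside them, other coding sites, with 95% exact binomial intervals. The regions overlap between the gene groups, while flanks of at least 8 pyrimidines were at 26.8% of SLC sites and 18.1% of other coding sites.

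Pyrimidine-rich flanks made up a larger share of SLC sites, without a test of the difference. Of the 10 bases around the site, at least 8 were C or U at 44 SLC sites (26.8%, interval 20.2 to 34.3%), against 18.1% (17.3 to 18.8%) of other coding sites. The mean pyrimidine share was 59.8%, against 54.5%. Among intronic sites the share with 8 or more was 32.2% (29 sites), against 20.9%. In exons it was 13.3% (4 sites), against 9.86%, and in 3'UTRs 18.8% (6 sites), against 16.7%. With 1 site kept per run of uridines the share was 26.6%, against 17.7%.

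A run of at least 4 uridines held 44 SLC sites (26.8%, 20.2 to 34.3%), against 20.2% (19.4 to 20.99%) of other coding sites. A run of at least 2 held 103 (62.8%), against 58.96%. Within a run the deletion cannot be placed on 1 uridine. On the plus strand 43 of the 49 SLC sites in such runs were listed at the 3′ end of the run, and on the minus strand 47 of 54 at the 5′ end. Those ends are the same side in genome coordinates. The 164 sites fall into 154 separate runs, and 10 pairs of listed neighbours share a run.

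Motifs of known synthases were searched in the context, on the listed strand only, with the site at the modified position. They were UNUAA or UNUAG for PUS7, the purine-preceded UAA or UAG that PUS1 favours, letters that fit both, GUUCNA for TRUB1, and uridine from 2 bases before to 2 bases after the site. Of SLC sites 8 had a PUS7 motif (4.88%, against 3.21% of other coding sites), 3 a PUS1 motif (1.83%, against 2.40%), 2 the shared letters (1.22%, against 1.68%) and 1 the TRUB1 motif (0.61%, against 0.519%). All 8 PUS7 motifs were on the plus strand at the 3′ end of a uridine run, where plus-strand run sites were mostly listed. Their count therefore depends on which uridine of a run was listed. The uridine tract was at 0 of 164, with an exact interval that reaches 2.22%, against 0.24% of other coding sites. A base listed at the end of a run, as most were, cannot have this tract, so the low shares tell little about sequence. When any uridine of the run could be the modified one, 11 SLC sites had a PUS7 motif (6.71%, against 5.70%) and 20 lay in a uridine tract (12.2%, against 10.1%). The sequences of 7 named sites follow, the highest of each kind, with the motif in capitals.
SLC2A13, shared letters: aaaTGTAAtct
SLC30A7, shared letters: agtTATAGttt
SLC16A10, PUS7 motif: catTTTAGaca
SLC25A46, PUS7 motif: tttTTTAAttg
SLC13A3, PUS1 motif: aatAATAAaac
SLC4A7, PUS1 motif: caaAATAAtta
SLC30A5, TRUB1 motif: cagGTTCTAct

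SLC2A13, the proton-coupled myo-inositol transporter, had 31.2% (5 of 16 reads), and SLC16A10, an aromatic amino acid transporter, 26.7% (4 of 15 reads, interval 7.79 to 55.1%). SLC25A46, a protein of the mitochondrial outer membrane, had 18.8% (6 of 32 reads). The zinc transporter SLC30A7 had 16.7% (5 of 30 reads). SLC13A3, a dicarboxylate transporter, had 17.6% (3 of 17 reads) and did not pass the 1% background, nor did SLC4A7 with 10.3% (3 of 29 reads) or the zinc transporter SLC30A5 with 9.4% (3 of 32 reads).

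Sites were spread thinly over the genes. A single site was listed in 46 of the 87 genes (52.9%, against 53.6% of other coding genes), 22 genes had 2, 9 had 3 and 10 had at least 4. The most was 6, in SLC10A7, a member of the bile acid transporter family, and in SLC4A7, a sodium bicarbonate cotransporter. Over the other coding genes the most was 45.

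**Figure D4:**
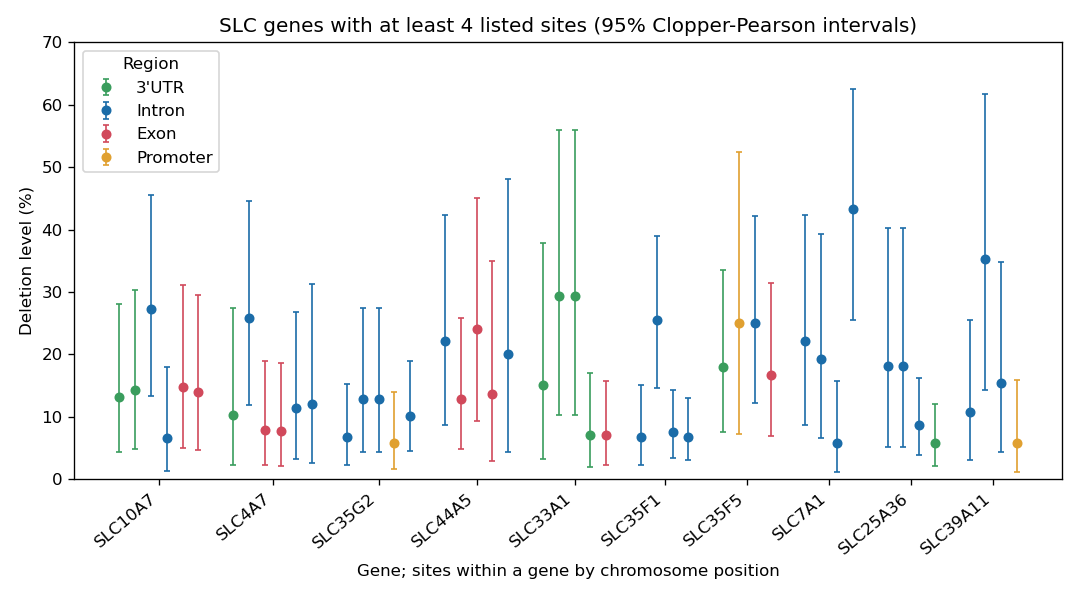
Deletion level (percent, vertical axis) of every site of the SLC genes with at least 4 sites, grouped by gene along the horizontal axis, with 95% exact binomial intervals. Levels within a gene mostly overlap, and the SLC7A1 site of 43.3% stands above its lowest at 5.7%.

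The 6 sites of SLC10A7 had 27.3% in an intron (9 of 33 reads), 14.7% and 13.9% at neighbouring exonic positions, 14.3% and 13.2% at neighbouring 3'UTR positions, and 6.5% in another intron (3 of 46 reads). Those of SLC4A7 had 25.8% (8 of 31 reads), 12%, 11.4%, 10.3%, 7.8% and 7.7%, the lowest being neighbours in an exon. The highest site was intronic in both genes, as was the lowest of SLC10A7. No pair of sites within either gene passed the pairwise test given below.

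SLC44A5, of the choline transporter-like family, had 5 sites from 12.8 to 24%. SLC33A1, the acetyl-CoA transporter of the endoplasmic reticulum, had 29.4% at neighbouring 3'UTR positions (5 of 17 reads each) and 7 to 15% at the other 3 sites. SLC35G2 had 5 sites from 5.7 to 12.8%. In SLC35F5 the 4 sites had 25% in an intron and at a promoter-annotated position, 17.9% in the 3'UTR and 16.7% in an exon. The promoter-annotated position lies 65.0% of the way along the RefSeq span.

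Levels of sites of 1 gene were compared pairwise with Fisher's exact test on deletion and other reads (two-sided, Benjamini-Hochberg adjusted over the 13471 pairs of all protein-coding genes, of which 1.41% passed). Of 139 SLC pairs in 41 genes, 3 passed, in SLCO5A1 and SLC7A1, and 20 had an unadjusted p under 0.05. The share of all pairs under that p was not computed. Pairs that share a site or take neighbouring positions are not independent. In SLC7A1 the site of 43.3% (13 of 30 reads) differed from an intronic site of 5.7% (3 of 53 reads), with an adjusted p of 0.00863 by Fisher's exact test. The remaining SLC7A1 sites had 22.2% and 19.2%. SLC35F1, a member of the nucleotide sugar transporter superfamily, had 25.5% (14 of 55 reads) against 6.8% (8 of 117 reads) 94 nt away, which missed the threshold (adjusted p = 0.0735, Fisher's exact test).

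SLCO5A1, an organic anion transporter family member, held most of the depth. Its intronic sites on chromosome 8 had 43.5% at position 69690123 (about 4888 of 11236 reads, interval 42.6 to 44.4%) and 5.7% at position 69690190 (about 426 of 7480 reads). A further site had 8.8% (3 of 34 reads). These made up 87.0% of the 6109 deletion reads of all SLC sites, and outside SLCO5A1 no SLC site had more than 178 reads. The site of 43.5% differed from that of 8.8% (adjusted p = 0.003007, Fisher's exact test) and from that of 5.7%.

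The contexts of these deep sites, which lie 67 nt apart, were also listed 68 nt apart at 5 other loci on 4 chromosomes, one of them shifted by 1 base. At RYR2 on chromosome 1 they had 11.6% of 1457 reads and 30.1% of 11927 reads, at AAMDC on chromosome 11 28% of 411 and 7.3% of 4311 reads. At a locus on the X chromosome they had 32.9% of 502 and 29.2% of 5901 reads. At the remaining 2 loci, both on chromosome 21, they had 5% of 9123 and 10.2% of 142070 reads, and 5% of 9630 and 9.7% of 141510 reads. The chromosome 21 positions lie inside the 28S rRNA genes RNA28SN2 and RNA28SN1 of RefSeq. Which locus the reads came from was not tested. Without SLCO5A1 the median SLC level was 13.6%.

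Contexts listed at more than 1 place were found at 18 SLC sites (11.0%, against 9.93% of other coding sites), and the most repeated are printed here with the one also listed at a Y RNA locus. A context this short can recur in unrelated loci, so a repeat is a description only.
SLC25A38, at 11 other sites: tttttTtgaga
SLC16A14, at 9 other sites: ttcttTctttc
SLC6A15, at 1 other site, a Y RNA locus: ctctcTccccc

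The SLC20A2 site, 25% (4 of 16 reads) in an intron of a sodium-coupled phosphate transporter, had its context at 7 other sites, 1 of them a 7SL RNA pseudogene. The SLC16A14 context, at 7.1% (3 of 42 reads), was also listed at a U3 RNA locus. No SLC site lay inside a small RNA gene of RefSeq. Another RefSeq gene held 10 SLC sites, of which 7 lay inside their own gene as well and 3 did not.

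The deposited gene name went beyond the RefSeq gene for 5 sites. Both SLC29A4 sites, 42.9% and 22.6% at neighbouring positions, lie 16455 and 16454 nt past the end of the RefSeq gene and inside TNRC18. The sites named for SLC35F2 (10%), SLC16A14 (7.1%) and SLC25A6 lie 64921, 17420 and 1937 nt outside. Without these 5 sites 72 of 159 passed the 1% background, against 35.97% of other coding sites inside their RefSeq genes.

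The strand of the gene was known from its RefSeq promoter for 134 SLC sites, and 129 were on that strand (96.3%, against 94.1% of other coding sites). The 5 on the opposite strand had 26.7% in SLC9B2 (4 of 15 reads), a sodium/proton exchanger, 10.7% in SLC39A6, a ZIP zinc transporter, 10% in SLC35G1, 10% in SLC35F2 and 7.1% in SLC16A14. For the last 2 the site is also outside the RefSeq gene.

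Among 126 sites on the gene's strand and inside its span, the median position was 63.5% of the way from start to end, against 55.5% for other coding sites. The stretch from 75% of the way to the end held 50 SLC sites (39.7%, against 34.1%). Intronic sites alone had a median position of 50.8% (70 sites), against 40.02%. The difference was not tested.

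**Figure D5:**
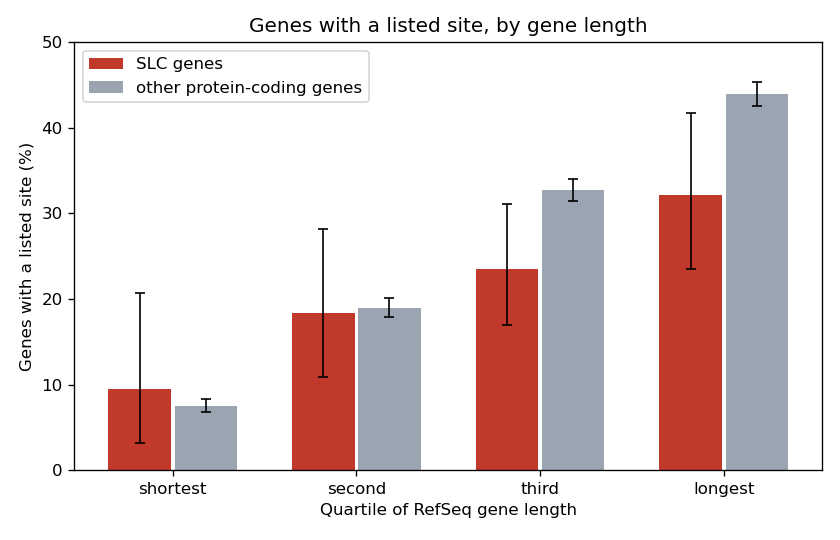
Percent of RefSeq genes with a listed site in each quartile of gene length, for SLC genes and, beside them, other protein-coding genes, with 95% exact binomial intervals. In the longest quartile 32.1% of SLC genes had a site, against 43.9% of other coding genes.

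Of 398 RefSeq SLC genes, 91 had a listed site (22.9%, interval 18.8 to 27.3%), against 5054 of 19658 other protein-coding genes (25.7%). The 91 are the 87 genes taken above and 4 listed under other deposited symbols. The sites of those 4 count as other coding sites elsewhere here. The SLC genes are longer, with a median span of 37175 nt, against 23839.5 nt. Gene lengths were split into quartiles. In that of 24092 to 65016 nt, 35 of 149 SLC genes had a site (23.5%, 16.9 to 31.1%), against 32.7% (31.4 to 34.1%). In the longest, 35 of 109 had one (32.1%, 23.5 to 41.7%), against 43.9% (42.5 to 45.3%). In both of these quartiles the interval of SLC genes lay below that of other coding genes, and the difference itself was not tested. In the quartiles below 24092 nt the shares were 9.43% and 18.4% of SLC genes, against 7.54% and 19% of other genes. Without regard to length, a site was listed in 16.9% of ion channel genes (33 of 195, interval 11.9 to 22.9%, median span 66760 nt), 26.1% of ABC transporters, 32.3% of ATP-driven pumps and 23.7% of transporters without an SLC symbol. The SLC share of 22.9% lay among these. The part of expression, which was not measured here, was not tested.

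Other membrane transport genes gave medians close to that of SLC genes. ABC transporters had 20 sites with a median of 14.4%, ATP-driven pumps 41 with 12.2%, ion channels 80 with 13.35%, and transporters without an SLC symbol 16 with 13.75%. Past the 1% background were 45% of the sites of ABC transporters, 48.8% of pumps, 32.5% of ion channels and 37.5% of transporters without an SLC symbol. Ion channel sites were intronic in 68.8% of cases (interval 57.4 to 78.7%), an interval that overlaps that of SLC sites.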

How the data were processed

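The deposited deletion level is a fraction, per the file headers, given here in percent. The deposited coverage is a count of reads per site. The p-value and FDR are those of the authors' deposited table. The genome is hg38, per the submitters' processing notes, while aligner, caller and annotation software were not given in the sources used here. Level times coverage gave whole deletion reads at every site within the rounding of 0.0005. At the deepest sites this cannot fail, so their deletion reads are approximate.

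Symbols were matched to RefSeq genes of GRCh38.p14, which gave gene lengths, names and promoter sequences. In promoter windows, 37 of 37 contexts equalled the RefSeq letters. Tests were run in Python 3.11.15 with scipy 1.17.1 and tested on simulated data. Nothing in the labels says that libraries came from separate cultures. The members and lists were chosen with earlier results of these data known. Sites named are the 12 highest, the 8 with most deletion reads, the 2 highest of each region and sequence class, the highest of each substrate class, sites of the 6 genes with most sites, and contexts shared with RNA genes. Further well-known carriers, such as SLC1A5, SLC2A1 and SLC7A11, were named after their values were seen. Alternatives were coverage of at least 30 or 60, at least 5 deletion reads, other backgrounds and other member rules.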

Additional observations from a re-analysis of the deposited data

How the results depend on the processing

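Of 31 alternatives 17 left the SLC value near its main one and 14 moved it; the cause was not tested. The median SLC level was 8.8% at coverage of at least 30 (other coding 8.3%), 6.8% at 60 (6.6%), 17.2% with at least 5 deletion reads (15.2%) and 22.2% past the 1% background (20.6%). The intronic share was 45.8% at coverage of at least 60 (32.2%) and 66.2% past the background (60.7%), and the share with a motif 4.17% at coverage of at least 60 (7.14%), against 8.54% over all SLC sites (7.81%). The order of SLC and other coding sites turned for the motif share in 4 of 5 alternatives, also 5.33% (7.99%) with at least 5 deletion reads, 6.76% (8.13%) past the background and 10.98% (11.01%) with any uridine of the run. It turned for the intronic share in 4 of 5, also 46.94% (46.01%) at coverage of at least 30 and 56% (52.25%) with at least 5 deletion reads, so neither share has a settled direction. Sites past the background were 35 at 2% (15.9% of other coding sites), 164 at 0.1% (100%) and 164 adjusted over the listed sites alone (100%). The listing minimum fixed the outcomes at 0.1% and over the listed sites alone. At coverage of at least 60, 24 sites in 17 genes remained and 1 of 9 within-gene pairs passed (4.08% of the pairs of all protein-coding genes). SLC genes with a site made up 8.54% at levels of at least 20% (8.50%, the order turned) and 16.1% at coverage of at least 30 (18.1%). Keeping 1 site per run, leaving out SLCO5A1 or sites outside the RefSeq gene, and the splits of pyrimidine-rich flanks were chosen after seeing the data. No paired analysis was possible because the table has no column per library, and leaving out a replicate was not possible for the same reason. Most sites rest on few deletion reads, which limits every single level.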

Other observations

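RefSeq lists 4 further genes as solute carriers that the deposited table names otherwise. TMEM104 (SLC38A12) had 14.3% in an intron, MFSD4B (SLC60A2) 17.6% in its 3'UTR, TMCO3 (SLC9D1) 18.2% in an intron (6 of 33 reads), and MFSD13A (SLC68A1) 15% in an intron and 19% in its 3'UTR (8 of 42 reads). SLC symbols of other gene types held 17 sites in 10 genes. The antisense gene SLC16A1-AS1 had 5 of them, from 9.8 to 25%, and the pseudogene SLC2A3P1 had 3, from 8.5 to 12.5%.

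Letters of splice sites were looked for after the data were seen. The context of the SLC25A11 site, shown in the report, was the one SLC context with GTGAGT or GTAAGT and the site as its second base (0.61% of SLC sites, 0.24% of other coding sites). CAG or TAG within the 5 bases after the site was at 12 SLC sites (7.32%, interval 3.84 to 12.4%) and 9.51% of other coding sites.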
